A study of Mus musculus with 6 samples.

Results

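The genes described here are 34 genes of the hepatic stellate cell and of the fibrillar matrix it deposits. They were taken by name: 9 collagen chains, 3 small leucine-rich proteoglycans, 5 glycoproteins, 3 crosslinking enzymes, 2 matrix proteases, 3 protease inhibitors, 4 genes of growth factor signalling, 4 genes of the contractile apparatus and cytoskeleton, and 1 galectin. All 34 were found among the 39179 gene identifiers counted in each library, and 31 of them were among the 11375 genes with enough counts to be tested. Lox, Loxl2 and Timp1 were too low for a test.

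Livers were from C57BL/6 mice, C57BL/6J in the growth protocol, fed a diet that supplied 60% of its energy as fat, beginning at 5 weeks of age and lasting 21 weeks. All animals were obese. They were divided by haematoxylin and eosin staining of the liver into isolated steatosis (fat storage alone) and NASH (nonalcoholic steatohepatitis, in which inflammation and cell injury accompany the fat), with 3 libraries per class. The comparison asks which liver genes distinguish the 2 histological classes on 1 diet. It is not a treatment, no lean liver was analysed here, and the labels give no stain for collagen and no fibrosis stage. The libraries were taken as separate mice, which the labels only imply, so p-values measure the spread between these samples.

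Stellate cells lie between hepatocytes and the sinusoidal endothelium and store vitamin A when at rest. After injury they can turn into contractile cells that express smooth muscle actin and secrete collagens. Collagen chains are assembled in the cell, trimmed outside it, bound by small proteoglycans that set the width of the fibres, and crosslinked by lysyl oxidases, while metalloproteases cut matrix and TIMP proteins block the proteases. TGF-beta and PDGF are the classical signals for matrix production and for stellate cell growth.

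Total counts ranged from 13909238 to 18002095 per library. Mitochondrially encoded genes took 62.0% to 83.9% of them. Loci with rRNA-like sequence took 22.3% of NASH replicate 3 and 8.96% of steatosis replicate 2, against at most 1.06% elsewhere. All other genes were left with 3378730 to 5149189 counts per steatosis library and 2185922 to 2719869 per NASH library, so many members rested on small counts. A level in CPM is the count of a gene divided by the TMM-scaled size of its library, and fold changes are NASH over steatosis from edgeR.

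The members as a group did not rise in NASH. Of the 31 tested, 0 were called higher and 1, Dcn, was called lower at an edgeR adjusted p under 0.05. Over all tested genes, 1.49% were called higher and 3.33% lower. At an unadjusted p under 0.05 there were 6 members lower and 1 higher, 7 of 31 in all, beside 23.2% of all tested genes. The log2 fold change lay above 0 in 10 members and below 0 in 21, with a median of -0.17, where the median of all tested genes was 0.01. The NASH and steatosis libraries did not overlap in 8 members, of which 6 were lower in NASH (Dcn, Bgn, Lum, Timp2, Lgals1 and Loxl1) and 2 higher (Acta2 and Fbn1). Among all tested genes, 16.2% were lower and 13.1% higher without overlap. The median standard error (SE) of a member's log2 fold change was 0.31. The 95% interval excluded a 2-fold rise in 27 of the 31 members and excluded a 2-fold change in either direction in 17.

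**Figure D1:**
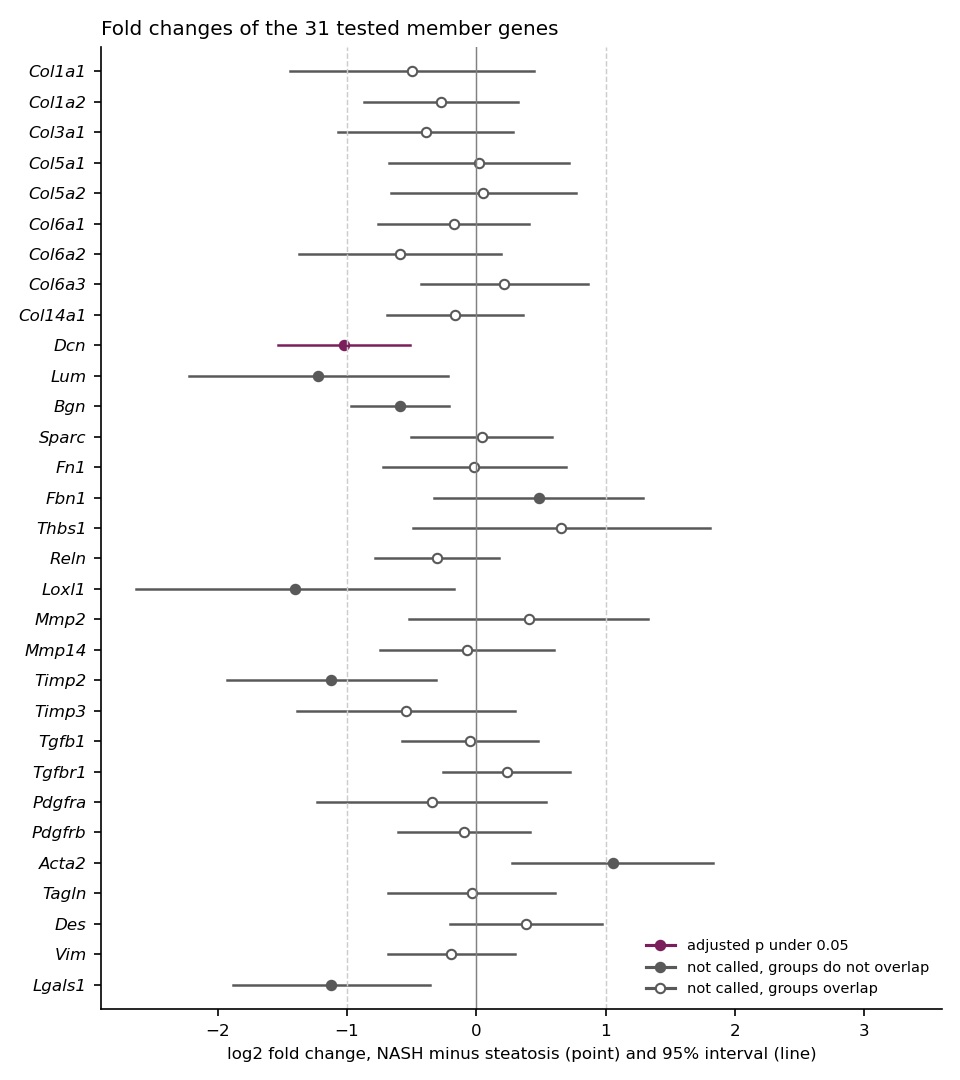
Log2 fold change of each tested member, NASH minus steatosis (x axis), with its 95% interval as a line; members are in order of role on the y axis, and dashed lines mark 2-fold changes. Dcn at -1.03 is the only called gene, Acta2 at 1.05 lies farthest to the right and Loxl1 at -1.40 farthest to the left.

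Levels were set side by side per kilobase of the longest coding transcript. In steatosis Lgals1 was highest at 48.0 CPM per kb, followed by Fn1 at 19.8, Dcn at 13.1, Bgn at 10.7 and Vim at 5.05. In NASH Lgals1 stood at 22.0 CPM per kb and Fn1 at 19.6, ahead of Bgn at 7.12, Dcn at 6.46 and Vim at 4.4. The same 5 genes thus led in both classes. With the summed length of all annotated exons instead, Lgals1 and Fn1 still led and Dcn ranked 4 in steatosis and 6 in NASH. The type I and III collagen genes lay well below them, with Col3a1 at 2.95 CPM per kb in steatosis and 2.23 in NASH, and Col1a1 at 1.0 and 0.697. Lox and Loxl2 were last in both classes. Acta2 ranked 24 in steatosis and 11 in NASH per coding transcript length.

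**Figure D2:**
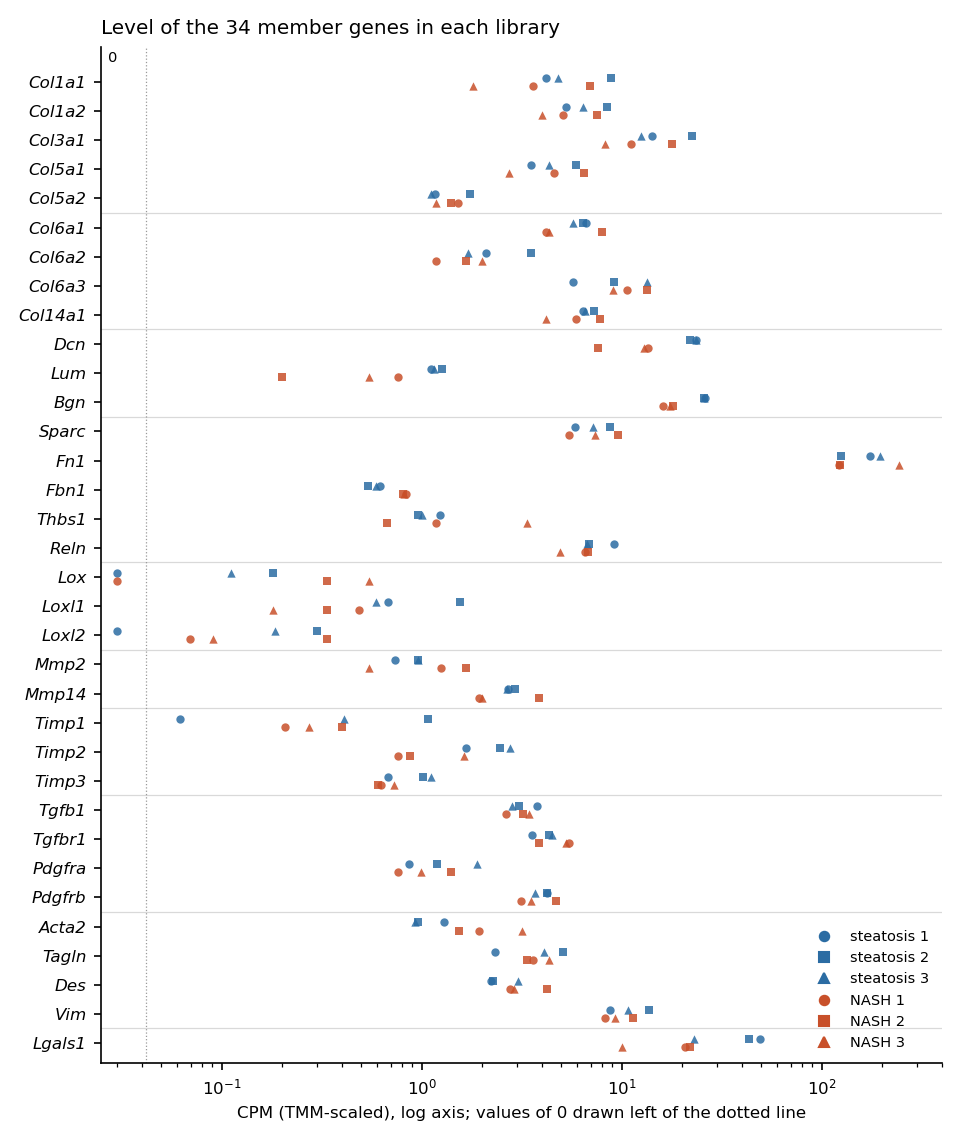
CPM of the 34 members (y axis, grouped by role) in each library on a logarithmic x axis; color gives the class, symbol shape the replicate number, and points left of the dotted line are 0. Fn1 stands above 100 CPM in every library, while the crosslinking enzymes lie at or below 1.56 CPM.

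Of the 3 proteoglycan genes, Dcn was called lower in NASH and Bgn and Lum missed the threshold, while all 3 were lower without overlap, as were 16.2% of all tested genes. Their summed level was 50.8, 49.2 and 50.6 CPM in the steatosis libraries and 30.5, 25.8 and 30.9 CPM in the NASH libraries, which is 50.2 ± 0.870 against 29.1 ± 2.80 (SD, n = 3 each). The NASH to steatosis ratio of the means was 0.579, and it was 0.624 when the 3 genes were set against all counts outside mitochondrial and rRNA-like genes. No NASH library reached the lowest steatosis library on either scale.

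Dcn encodes decorin, a proteoglycan that binds collagen fibres and can hold TGF-beta in the matrix. It lies at chr10:97479609-97518143 on the plus strand (GRCm38). Its level was 23.7, 22.0 and 23.6 CPM in steatosis and 13.5, 7.63 and 12.9 CPM in NASH, from 384, 367 and 637 counts against 195, 114 and 142. The steatosis libraries were close together and all NASH libraries were lower, replicate 2 the most. Dcn fell in NASH by 1.03 on the log2 scale (SE 0.23, 95% interval -1.54 to -0.52, edgeR adjusted p = 0.0348), a 2.04-fold drop. The call was near the threshold: leaving out any 1 of the 6 libraries gave an edgeR adjusted p between 0.0584 and 0.115, with a log2 fold change between -1.17 and -0.79.

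Bgn encodes biglycan, a close relative of decorin that also acts as a danger signal for macrophages when released from matrix (chrX:73483602-73495933, plus strand). Its level was 26.1, 26.0 and 25.8 CPM in steatosis and 16.2, 18.0 and 17.4 CPM in NASH. The replicates were tight in both classes and the classes stood apart. The log2 fold change was -0.59 (SE 0.17, 95% interval -0.97 to -0.21), and its edgeR adjusted p of 0.0744 missed the threshold.

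Lum encodes lumican, which regulates collagen fibre assembly. It lies on chromosome 10 at 97565128-97572703, 46.98 kb downstream of Dcn and on the same strand. Its level was 1.11, 1.26 and 1.15 CPM in steatosis and 0.764, 0.201 and 0.545 CPM in NASH, with 18 to 31 counts per steatosis library and 3 to 11 per NASH library. As for Dcn, NASH replicate 2 was the lowest library. The log2 fold change was -1.22 (SE 0.45), with an edgeR adjusted p of 0.14. For the 2 larger members, there were 0.908, 0.848 and 0.917 Dcn counts per Bgn count in the steatosis libraries and 0.837, 0.424 and 0.740 in NASH. The classes did not overlap, but NASH replicate 1 lay close to steatosis replicate 2. This ratio was chosen after its values were seen and was not tested. Dcn counts per Col3a1 count overlapped between the classes.

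Stellate cell markers are given beside the proteoglycans. The summed level of 10 stellate markers was 47.5 to 51.8 CPM in steatosis and 33.3 to 34.9 CPM in NASH, but Dcn is itself the largest of the 10, and Reln and Des are members too. The 7 markers that are not members summed to 16.1 to 18.5 CPM in steatosis and 12.1 to 14.7 CPM in NASH, and 0 of the 5 tested were called. Of these, Hhip and Ngfr were at or near 0, at no more than 0.599 CPM. Lrat, the enzyme that esterifies vitamin A, had a log2 fold change of 0.16 (SE 0.35). A wider list of stellate markers, given last, had 7 of 11 tested genes above 0. In whole liver, fewer stellate cells and less RNA per cell cannot be told apart, and the part of stellate cell number in the Dcn result was not tested.

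**Figure D3:**
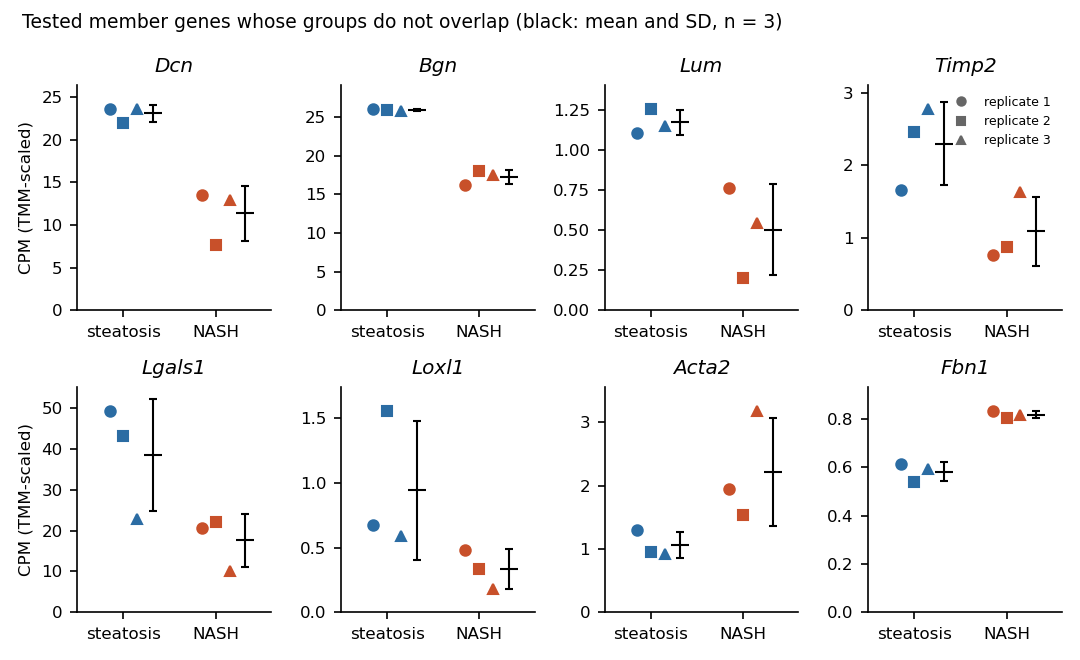
CPM (y axis, from 0) of the 8 tested members whose classes do not overlap, 1 point per library, with the mean and SD of 3 libraries in black. Bgn is tight within each class, Lgals1 in steatosis replicate 3 comes close to the NASH range at 22.9 CPM, and Acta2 is highest in NASH replicate 3 at 3.18 CPM.

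The fibrillar collagens overlapped between the classes, and 0 of the 5 were called. Col1a1 and Col1a2 encode the chains of type I collagen, the main collagen of scar, Col3a1 encodes type III, and Col5a1 and Col5a2 encode type V, which starts fibres. Col1a1 (chr11:94936224-94953042, plus strand) was at 4.19, 8.87 and 4.79 CPM in steatosis and 3.61, 6.96 and 1.82 CPM in NASH. Steatosis replicate 2 and NASH replicate 2 were high and NASH replicate 3 was low. Its log2 fold change was -0.50 (SE 0.43, 95% interval -1.44 to 0.45, edgeR adjusted p = 0.527).

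Col3a1 (chr1:45311538-45349706, plus strand) had the same order of libraries at the top and bottom, with 14.2, 22.5 and 12.5 CPM in steatosis and 11.2, 17.8 and 8.26 CPM in NASH. Its log2 fold change was -0.39 (SE 0.31, 95% interval -1.07 to 0.29). Col1a2 stood at -0.27 (SE 0.27), and the partner chains of type I collagen were counted in unequal ratios, from 0.455 Col1a1 counts per Col1a2 count in NASH replicate 3 to 1.05 in steatosis replicate 2. For Col5a1 the log2 fold change was 0.02 (SE 0.31) and for Col5a2, 24.61 kb from Col3a1 on the opposite strand, it was 0.05 (SE 0.32). A 2-fold rise lay outside the 95% interval for each of the 5 genes. The direction of the type I and III chains depended on few libraries: in the 4 libraries with few rRNA-like reads, without steatosis replicate 2 and NASH replicate 3, their log2 fold changes were 0.23, 0.10 and 0.12 for Col1a1, Col1a2 and Col3a1.

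Collagen VI, which forms beaded filaments around cells, and collagen XIV, which sits on the surface of fibres, gave 0 calls in 4 genes. Col6a1 was at 6.65, 6.41 and 5.71 CPM in steatosis and 4.17, 7.97 and 4.36 CPM in NASH, so the classes overlapped through NASH replicate 2. Its neighbour Col6a2, 85.16 kb away on the same strand, had the lowest log2 fold change of the 4 at -0.59 (SE 0.35, adjusted p = 0.347 by edgeR). Col6a3 stood at 0.22 (SE 0.29) and Col14a1 at -0.17 (SE 0.24). The summed level of these 4 genes was 20.9 to 27.3 CPM in steatosis and 19.6 to 30.8 CPM in NASH.

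Single libraries stood out across the 9 collagen genes. Steatosis replicate 2 was the highest library for 5 of them, steatosis replicate 3 for 1 and NASH replicate 2 for 3, while NASH replicate 3 was the lowest for 5, NASH replicate 1 for 2 and steatosis replicates 1 and 3 for 1 each. Over all 34 members, steatosis replicate 2 was highest in 10 and NASH replicate 2 in 9. The same steatosis library stood out in markers of portal fibroblasts and of mesothelium, the cell layer on the liver surface. The 8 markers summed to 7.79 CPM there, against 2.03 and 1.97 in the other steatosis libraries and 1.32, 2.88 and 5.27 in NASH. Most of it came from Msln, mesothelin, at 4.20 CPM in that library and 0.678 and 0.742 in the other steatosis libraries. It was also high in NASH replicate 3, at 2.36 CPM, where collagens were low. The part of these cells in the collagen levels was not tested.

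**Figure D4:**
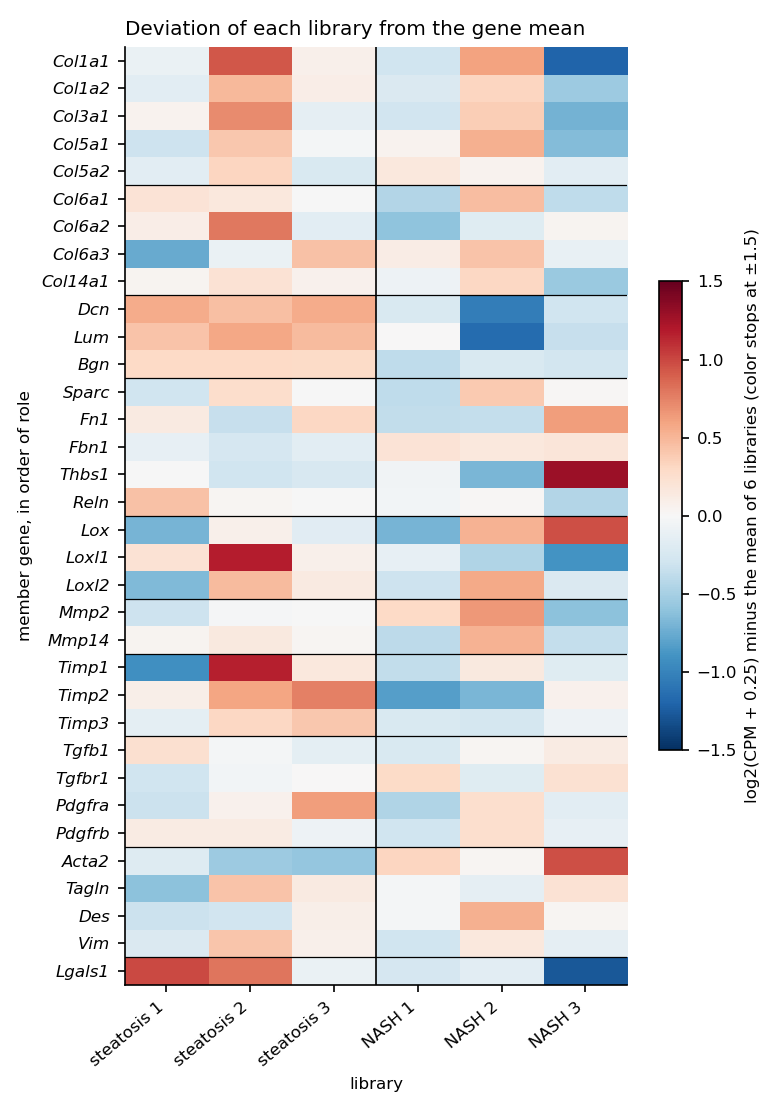
Deviation of each library (x axis) from the gene's own mean over 6 libraries, as log2(CPM + 0.25), for the 34 members in order of role (y axis); red is higher and blue lower, and colors stop at 1.5. The collagen rows are mostly red in steatosis 2 and NASH 2 and mostly blue in NASH 3, while Dcn, Lum and Bgn are red in all 3 steatosis libraries.

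The glycoproteins gave 0 calls in 5 genes. Fn1 encodes fibronectin, which hepatocytes also secrete into plasma. It was at 174, 125 and 196 CPM in steatosis and 122, 123 and 245 CPM in NASH. NASH replicate 3 was the highest library and the other NASH libraries the lowest, so the log2 fold change of -0.01 (SE 0.32) joined a wide spread. Fbn1, the microfibril protein fibrillin, was at 0.616, 0.539 and 0.594 CPM in steatosis and 0.834, 0.804 and 0.817 CPM in NASH. The classes did not overlap, but with 9 to 16 counts per library the log2 fold change of 0.48 had an SE of 0.37 and an edgeR adjusted p of 0.47. Thbs1, thrombospondin, which can activate latent TGF-beta, was 3.36 CPM in NASH replicate 3 and 0.67 to 1.23 CPM in the other 5 libraries. Sparc, a collagen-binding protein, stood at a log2 fold change of 0.04 (SE 0.25) and Reln, reelin, at -0.30 (SE 0.22).

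Crosslinking enzymes were near the floor of these libraries. Lox was counted 6 times over the 3 steatosis libraries and 11 times over the NASH libraries. The pooled ratio, NASH over steatosis, was 2.72 with an exact 95% counting interval of 0.922 to 8.96. A pooled ratio compares summed counts per summed TMM-scaled library size and differs from a ratio of mean CPM. Loxl2 had 10 and 7 counts, a ratio of 1.04 (0.336 to 3.02). These intervals cover counting error only. Loxl1, which crosslinks elastin, was at 0.678, 1.56 and 0.594 CPM in steatosis and 0.486, 0.335 and 0.182 CPM in NASH. The classes did not overlap, on 2 to 26 counts per library, and the log2 fold change was -1.40 (SE 0.56, adjusted p = 0.163 by edgeR).

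Protease genes overlapped and 2 of the 3 inhibitor genes were tested without a call. Mmp2, a gelatinase of stellate cells, had a log2 fold change of 0.40 (SE 0.42), and Mmp14, the membrane protease that activates it, of -0.07 (SE 0.30). Timp2 (chr11:118301069-118355740, minus strand), an inhibitor that also takes part in that activation, was at 1.66, 2.46 and 2.78 CPM in steatosis and 0.764, 0.871 and 1.63 CPM in NASH. The highest NASH library lay just below the lowest steatosis library. The log2 fold change was -1.12 (SE 0.37, 95% interval -1.93 to -0.31, edgeR adjusted p = 0.102), and the gene was called lower when genes with low counts were kept (edgeR adjusted p = 0.0264). In that fit 4.61% of 19803 genes were called lower. Timp3, which binds to matrix, stood at -0.55 (SE 0.38).

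Timp1, a gene that activated stellate cells are known to express, was counted 1, 18 and 11 times in steatosis and 3, 6 and 3 times in NASH. Most of its steatosis counts came from replicate 2 and 3. The pooled ratio of NASH over steatosis was 0.594, with an exact 95% counting interval of 0.277 to 1.19. The inhibitors summed to 2.40, 4.55 and 4.30 CPM in steatosis and 1.6, 1.88 and 2.63 CPM in NASH, which overlap.

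The growth factor gene and the receptors overlapped between the classes, and 0 of the 4 were called. Tgfb1, the ligand, was at 3.76, 3.06 and 2.82 CPM in steatosis and 2.64, 3.21 and 3.45 CPM in NASH, a log2 fold change of -0.05 (SE 0.24). Tgfbr1, its type I receptor, stood at 0.23 (SE 0.22). For the PDGF receptors the values were -0.35 (SE 0.40) for Pdgfra and -0.09 (SE 0.23) for Pdgfrb. The summed level of all 4 genes was 12.4 to 12.9 CPM in steatosis and 12.0 to 13.3 CPM in NASH. A 2-fold rise lay outside the 95% interval for all 4 genes. A 2-fold fall lay inside it for Pdgfra (-1.23 to 0.54) and outside it for the other genes of this group.

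Among the contractile and cytoskeletal genes, Acta2 had the highest fold change of the tested members. Its companions had lower ones and overlapped between the classes, and the difference between them and Acta2 was not tested. Acta2 encodes smooth muscle actin, the usual sign of an activated stellate cell, and is also expressed in vessel walls (chr19:34241090-34255590, minus strand). Its level was 1.29, 0.959 and 0.928 CPM in steatosis and 1.95, 1.54 and 3.18 CPM in NASH, from 16 to 25 counts per steatosis library and 23 to 35 per NASH library. Every NASH library was above every steatosis library, NASH replicate 3 the most. The log2 fold change was 1.05 (SE 0.35, 95% interval 0.27 to 1.83), and the edgeR adjusted p of 0.107 missed the threshold.

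Tagln encodes transgelin, an actin-binding protein of smooth muscle and activated stellate cells. It was at 2.34, 5.09 and 4.08 CPM in steatosis and 3.61, 3.35 and 4.36 CPM in NASH, with a log2 fold change of -0.04 (SE 0.29). Its exons share 108 bases with Pcsk7 on the opposite strand, and the strand setting of the counting is not given in the sources used here. Des, desmin, stood at 0.39 (SE 0.26) and Vim, vimentin, at -0.20 (SE 0.22). The number of Acta2 counts per Tagln count was 0.553, 0.188 and 0.227 in steatosis and 0.538, 0.460 and 0.729 in NASH, and overlapped through steatosis replicate 1.

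Vascular smooth muscle markers are given beside Acta2. The 6 markers summed to 3.72 to 4.34 CPM in steatosis and 5.89 to 7.17 CPM in NASH, without overlap, and 0 of the 2 tested, Myh11 and Smtn, were called. Of the untested ones, Cnn1 had a pooled ratio of 0.81 and Synpo2 of 1.11, NASH over steatosis, on 6 to 12 counts per class. Actg2 had a ratio of 4.16, on 14 counts in NASH and 5 in steatosis, and was higher in NASH without overlap. Its exact counting interval was 1.41 to 14.7, which covers counting error only. Lmod1 had a ratio of 1.67, on 9 counts in NASH and 8 in steatosis, and its classes overlapped. Myh11, smooth muscle myosin, was at 1.29, 1.2 and 1.26 CPM in steatosis and 2.57, 1.54 and 3.45 CPM in NASH, a log2 fold change of 0.99 (SE 0.33, adjusted p = 0.11 by edgeR). Like Acta2 it was highest in NASH replicate 3 and lowest among the NASH libraries in replicate 2. Smtn was at 1.72, 2.28 and 2.52 CPM in steatosis and 2.85, 3.95 and 2.63 CPM in NASH. Its log2 fold change was 0.53 (SE 0.27, adjusted p = 0.27 by edgeR). Unlike Acta2, Smtn was highest in NASH replicate 2 and lowest among the NASH libraries in replicate 3. Cnn1, calponin, was at 0 in NASH replicate 2 and at no more than 0.272 CPM elsewhere. The part of vessel wall cells in the Acta2 values was not tested.

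Lgals1, galectin-1, is a sugar-binding protein of mesenchymal and immune cells (chr15:78926725-78930465, plus strand). Its level was 49.2, 43.2 and 22.9 CPM in steatosis and 20.7, 22.0 and 10.1 CPM in NASH. Steatosis replicate 3 lay just above the highest NASH library, and the other steatosis libraries were far above it. The log2 fold change was -1.12 (SE 0.34, 95% interval -1.88 to -0.36, edgeR adjusted p = 0.0887). DESeq2 called it lower (adjusted p = 0.0223), a tool that called 5.35% of 9818 genes lower. Of the 6 fits that leave out a library, 1 called it, that without steatosis replicate 3, and their edgeR adjusted p ranged from 0.0435 to 0.266.

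**Figure D5:**
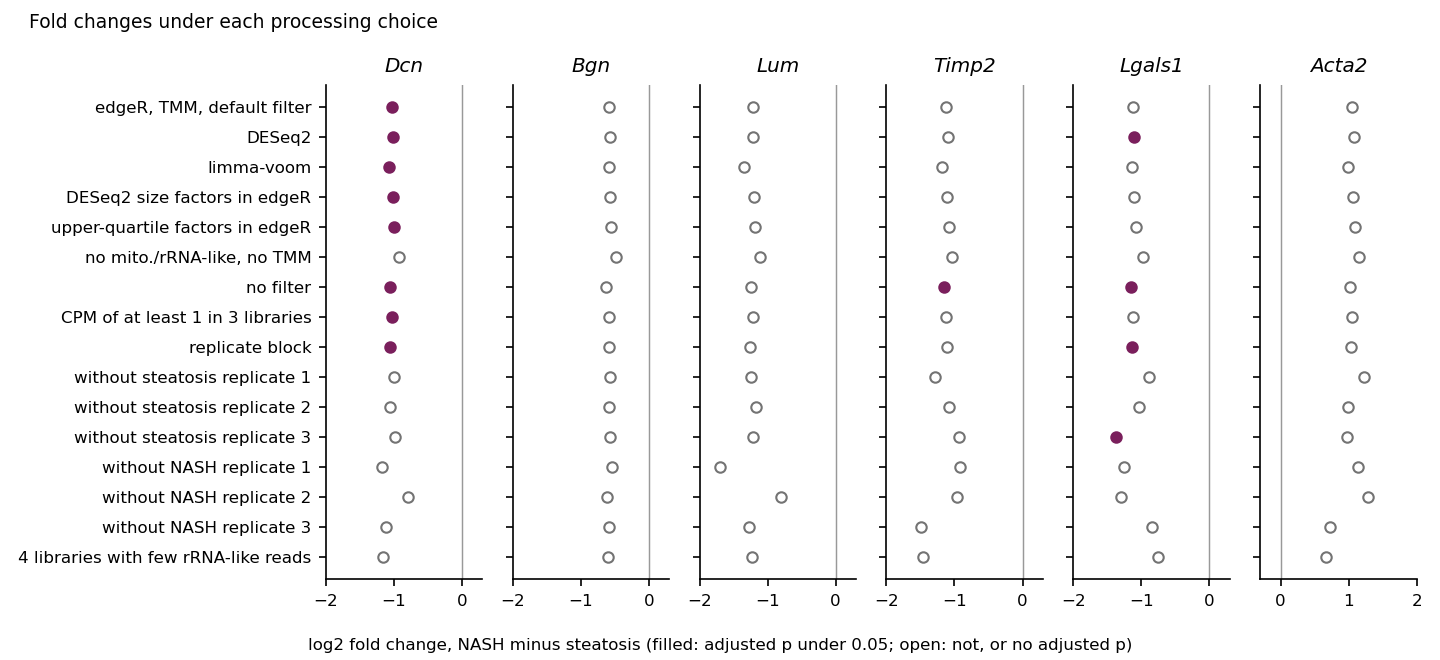
Log2 fold change, NASH minus steatosis (x axes), of 6 members under each processing choice (y axis); filled points have an adjusted p under 0.05. All points keep the sign of the reported fit, the Dcn call is lost in each fit that leaves out a library, and Acta2 stays above 0 and uncalled throughout.

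Promoter sequence was read for members whose classes did not overlap and for the type I and III collagens, to show what lies before their starts. RefSeq promoters of GRCm38.p6, the 250 bases before the start, were matched for 20 of the 34 members. The windows of Acta2, Timp2, Col1a2 and Fbn1 run over exons of longer GENCODE transcripts, so of these only the motif matches of Acta2 are printed. Of the 20 members, 11 have windows free of annotated exons, and the motif counts cover all 20. The 250 bases before Bgn (chrX:73483351-73483600, plus strand) and Col3a1 (chr1:45311288-45311537, plus strand) follow, 5′ to 3′ on the gene's strand. Capitals mark matches, on either strand, to GGGCGG (the GC box), to CCAAT (the NF-Y site), to the TATAAA element or to CATTCC (the TEAD site), or to the CArG pattern described after them.
Bgn: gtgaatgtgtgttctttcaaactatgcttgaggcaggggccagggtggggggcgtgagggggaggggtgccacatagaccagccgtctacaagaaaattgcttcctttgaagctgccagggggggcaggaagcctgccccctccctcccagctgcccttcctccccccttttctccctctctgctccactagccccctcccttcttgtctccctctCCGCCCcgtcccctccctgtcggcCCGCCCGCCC
Col3a1: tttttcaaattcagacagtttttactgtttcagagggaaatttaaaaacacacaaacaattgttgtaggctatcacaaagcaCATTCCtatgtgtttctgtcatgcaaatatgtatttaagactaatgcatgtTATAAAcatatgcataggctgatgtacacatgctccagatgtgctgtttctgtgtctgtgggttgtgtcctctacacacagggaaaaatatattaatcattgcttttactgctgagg

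The Bgn window is rich in G and C and holds GGGCGG, the GC box, 3 times on the other strand, the last 2 copies overlapping. GC boxes were found before 13 of the 20 members and before 35.36% of all 27025 genes with a promoter. A gene was counted if any of its windows held the motif. The Col3a1 window holds no GC box. It has TATAAA at -117 to -112 from the start, a motif of 2 members and 14.33% of all genes. CATTCC lies at -168 to -163, a motif of 4 members and 14.36% of all genes. CCAAT was found before 6 members and 37.49% of all genes.

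The CArG box is the site of serum response factor in smooth muscle genes and has 6 A or T bases between CC and GG. It was found before 0 of the 20 members and 1.624% of all genes. A pattern with exactly 1 of the 6 inner bases a C or G was added after that result was seen. It occurred before 5 members (Acta2, Col1a2, Col6a3, Mmp14 and Timp3) and 8.333% of all genes. Acta2 held it 2 times, at -84 to -75 (chr19:34255438-34255467 with 10 bases on each side) and at -34 to -25 (chr19:34255388-34255417) from the RefSeq start. Both are printed 5′ to 3′ on the minus strand, with the match in capitals, because Acta2 had the highest fold change among tested members.
Acta2 upstream match: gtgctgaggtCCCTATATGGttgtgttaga
Acta2 downstream match: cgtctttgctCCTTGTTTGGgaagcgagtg
These matches describe letters in a window, and binding was not measured.

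Other genes of matrix formation were mostly uncalled as well. Of 30 further matrix genes, 20 were tested, with 1 called higher and 1 lower (1.49% and 3.33% of all tested genes) and a median log2 fold change of -0.02. Both calls were fibrillar collagens. Col27a1, expressed mainly in cartilage, was at 173, 159 and 123 CPM in steatosis and 49.0, 60.3 and 41.1 CPM in NASH. Its steatosis mean of 152 CPM was above that of every member but Fn1. Exon overlap with other genes was examined for the members only. All NASH libraries were far below all steatosis libraries, and Col27a1 fell by 1.6 on the log2 scale (SE 0.25, 95% interval -2.14 to -1.05, edgeR adjusted p = 0.0104). It stayed called when any 1 library was left out (edgeR adjusted p at most 0.0475), but not in the 4 libraries with few rRNA-like reads (edgeR adjusted p = 0.114).

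Col5a3, a further chain of type V collagen, was at 74.8, 78.5 and 59.0 CPM in steatosis and 203, 130 and 121 CPM in NASH, again without overlap. It rose by 1.10 on the log2 scale (SE 0.26, adjusted p = 0.0455 by edgeR), a call lost when any 1 library was left out. Its partner chains Col5a1 and Col5a2, given above, had log2 fold changes near 0. They were also at far lower levels, with steatosis means of 4.60 and 1.34 CPM.

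Enzymes and chaperones that modify or process collagen gave 0 calls in 17 tested of 20 genes. Their median log2 fold change was 0.30, with 13 above 0, and at an unadjusted p under 0.05 there were 5 higher and 1 lower, 6 of 17, beside 23.2% of all tested genes. P4ha1 and P4ha2, catalytic subunits of prolyl 4-hydroxylase, had log2 fold changes of 1.04 (SE 0.33, adjusted p = 0.0955 by edgeR) and 0.88 (SE 0.28, adjusted p = 0.0979 by edgeR). DESeq2 called P4ha1 higher (adjusted p = 0.0338), a tool that called 316 of 9818 genes higher. P4ha1 was at 7.08, 11.1 and 9.42 CPM in steatosis and 30.4, 13.2 and 13.1 CPM in NASH, so NASH replicate 1 stood out. Leaving out 1 library gave P4ha1 log2 fold changes of 0.52 to 1.26 and 0 calls.

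TGF-beta and PDGF signalling gave 0 calls in 17 tested of 22 genes, with a median of -0.23. Itgav, an integrin subunit that helps release TGF-beta, stood at -0.92 (SE 0.34, adjusted p = 0.137 by edgeR), and Tgfbr2, the type II receptor, at -0.80 (SE 0.36, adjusted p = 0.211 by edgeR). The wider list of 15 stellate cell markers had 11 tested, 0 called and a median of 0.04. Its smallest p-values were those of Hand2, a transcription factor of stellate cells, at -0.49 (SE 0.21), and Cygb, cytoglobin, at -0.48 (SE 0.26). Other proteases gave 0 calls in 8 tested of 18 genes, with Adamts1 at -0.96 (SE 0.32) and Mmp23 at 0.86 (SE 0.34).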

How the data were processed

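RNA-seq of 6 mouse livers, 3 with steatosis and 3 with NASH, was analysed. The authors deposited raw read counts per gene, made with TopHat2 and HTSeq on mm10 (GRCm38) per the submitters' processing notes, from polyadenylated RNA read as 150 bp pairs per the labels' protocols. Not given in the sources used here are tool versions, the annotation release and the strand setting. Of 39179 identifiers, 37607 had a symbol, and the others held at most 0.119% of a library.

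Members and lists were chosen with earlier results of these data known. All members are named, and of each further list the called genes or else the 2 with the smallest p. Gene positions are from GENCODE M21. Exons of 12 members overlap another gene, 11 on the opposite strand.

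Counts were fitted in R 4.3.3 with edgeR 4.0.16 (default filter, TMM, quasi-likelihood test, Benjamini-Hochberg adjustment over 11375 genes). The SE is the log2 fold change over the root of F, an approximation from which 95% intervals were made. Alternatives were DESeq2 1.42.0, limma-voom (limma 3.58.1), other scalings and filters, a replicate block, each library left out, and 4 libraries alone. On simulated counts of this comparison (11170 genes, 200 changed), 21% of 2-fold and 94% of 4-fold changes were recovered, with 8% of the calls false and 0 of the wrong sign.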

Additional observations from a re-analysis of the deposited data

How the results depend on the processing

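Members called lower numbered 2 with DESeq2 and 3 with no filter. None were left with counts scaled to the library outside mitochondrial and rRNA-like genes without TMM (0, Dcn at edgeR adjusted p = 0.0513), or in the 4 libraries with few rRNA-like reads (0). Leaving out 1 library gave 0 to 1. Over all genes, 169 were called higher and 379 lower. DESeq2 called 316 higher, no filter 535 higher and 912 lower, the scaling without TMM 229 lower, the 4 libraries 17 higher and 19 lower, and fits without 1 library 29 to 170 higher and 77 to 298 lower. Further genes called higher were 2 with DESeq2 and 4 with no filter, 0 in the 4 libraries and 0 to 0 without 1 library. Those called lower were 3 with no filter and 0 in the 4 libraries. The members' median was 0.011 in the 4 libraries and -0.38 to -0.059 without 1 library. The summed growth factor and receptor ratio was 1.09 without TMM, a scaling that moved the median of all genes from 0.01 to 0.12. The cause of these shifts was not tested, beyond the fewer libraries.

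Some uncalled members changed sign, among them Thbs1 (0.66), Col1a1 (-0.50), Col3a1 (-0.39) and Pdgfra (-0.35), which are not near 0 in the reported fit. In the 4 libraries, Col1a1 was 0.23, Col1a2 0.10, Col3a1 0.12, Col14a1 0.088, Thbs1 -0.26, Mmp14 0.12, Tagln 0.096 and Vim 0.011. With limma-voom Col5a1 was -0.0075 and Tagln 0.013, and with no filter Col5a1 was -0.011. Fn1 was 0.0027 with DESeq2, 0.0029 with its size factors, 0.023 with upper-quartile factors and 0.076 without TMM, where Mmp14 was 0.046, Tgfb1 0.069, Pdgfrb 0.025 and Tagln 0.057. Leaving out 1 library gave ranges of -0.30 to 0.28 for Col5a1, -0.057 to 0.27 for Col5a2, -0.025 to 0.59 for Col6a3, -0.39 to 0.04 for Col14a1, -0.17 to 0.23 for Sparc, -0.42 to 0.17 for Fn1, -0.19 to 1.08 for Thbs1, -0.47 to 0.11 for Mmp14, -0.12 to 0.089 for Tgfb1, -0.61 to 0.062 for Pdgfra, -0.27 to 0.03 for Pdgfrb and -0.27 to 0.21 for Tagln. Of all single-gene values under an alternative, 541 kept direction and side of the threshold, 45 changed sign, 9 gained and 16 lost a call.

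With the replicate number as a block, 153 genes were called higher, 313 lower and 2 members lower (Dcn and Lgals1, edgeR adjusted p = 0.0208 for the latter), with Col5a1 at -0.032 and Tagln at 0.018. Same-numbered libraries correlated at 0.035, -0.012 and 0.071, and differently numbered ones at -0.098 to 0.068. The labels state no pairing, and such small correlations cannot exclude one.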

Other observations

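Markers of other liver cells were summed per library as a record of what else the tissue held. The 8 markers of sinusoidal endothelium stood at 37.9 to 50.2 CPM in steatosis and 46.5 to 68.5 CPM in NASH, the 7 macrophage markers at 27.2 to 32.7 and 23.1 to 51.2 CPM, the 6 lymphocyte markers at 3.23 to 5.69 and 2.28 to 5.84 CPM, and the 5 cholangiocyte markers at 1.85 to 3.6 and 1.94 to 2.09 CPM. All 4 lists overlapped between the classes and 0 of their tested genes were called. The 6 hepatocyte markers summed to 10021 to 12430 CPM in steatosis and 8476 to 11565 CPM in NASH, and the 4 erythroid markers to 119.8 to 146 and 104 to 149.7 CPM. Of 4 adipocyte markers, Adipoq and Plin1 were at 0 in every library, and nearly the whole sum came from Cfd, the complement protease adipsin, at 127, 55.4 and 33.7 CPM in steatosis and 41.1, 26.9 and 11.7 CPM in NASH.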
